A study of Homo sapiens with 8 samples.

Results

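Regions of open chromatin in U-937 cells treated with Corin and ATRA were compared with those in cells treated with ATRA alone. U-937 is an established human monocytic leukaemia line. After 24 h of treatment accessible DNA was profiled by ATAC-seq, an assay whose transposase inserts sequencing adapters where chromatin is open. The ATRA group received all-trans retinoic acid at 0.1 µM, and the group called the combination received ATRA at 0.1 µM and Corin at 0.1 µM. A group with Corin alone at 0.1 µM and a DMSO vehicle group served as the comparison without ATRA. The series has 8 samples in 4 groups of 2, and the authors made 1 peak list for each group as a whole. The members are the regions of the combination list and the ATRA list, which together formed 126362 separate loci, out of 161291 over all 4 lists. Of these, 14715 are called gained (in the combination list only), 32360 lost (in the ATRA list only) and 79287 shared. Because a group had 1 list, no difference below has a spread between replicates, and none was tested. Positions are on hg38. Deposited peaks lay at the promoters of 10 of 12 monocytic and myeloid marker genes in both lists, SPI1, LYZ, CD33 and CSF1R among them, while none lay at the promoter of MPO in any list. Of the markers of other cells, 1 of 5 T cell and 1 of 4 epithelial promoters carried a peak in both lists. So did 3 of 4 B cell and 3 of 3 fibroblast promoters. Of 5 erythroid promoters, 1 carried a peak with ATRA and 0 with the combination. Given the B cell and fibroblast markers, promoter peaks alone do not separate cell types here.

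ATRA is a ligand of the retinoic acid receptors, nuclear receptors that sit on their target genes with co-repressors until the ligand exchanges these for co-activators. Corin is a small molecule that inhibits both enzymes of the CoREST co-repressor complex, the histone demethylase LSD1 (KDM1A) and the histone deacetylases HDAC1 and HDAC2. In myeloid cells CoREST is brought to DNA by repressors such as GFI1, while PU.1 and C/EBP factors open myeloid enhancers and AP-1, a dimer of FOS and JUN proteins, binds many inducible enhancers. Adding Corin to ATRA therefore asks what happens to the chromatin of ATRA-treated cells when this complex is inhibited as well.

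The sequences under the most changed shared loci show the main sequence difference. Each line gives 120 bases of the hg38 plus strand, centred on the summit of the locus. Capitals mark matches, on either strand, to words associated with AP-1 (TGAGTCA, which reads TGACTCA on the other strand), PU.1 (GAGGAAGT), RUNX (TGTGGTT) or CTCF (CCA and AG and GGC in this order, with any 2 bases between neighbours). The first 6 loci had higher peaks with the combination than with ATRA and the last 5 had lower ones. Each name is that of the nearest protein-coding transcription start.

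LAMTOR5, chr1:110421302-110421421: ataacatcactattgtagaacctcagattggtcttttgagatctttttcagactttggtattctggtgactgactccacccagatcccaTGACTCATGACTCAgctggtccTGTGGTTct
SLC25A4, chr4:185112222-185112341: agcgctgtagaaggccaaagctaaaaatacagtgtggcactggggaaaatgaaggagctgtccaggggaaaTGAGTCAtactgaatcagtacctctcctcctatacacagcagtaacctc
AGFG1, chr2:227466373-227466492: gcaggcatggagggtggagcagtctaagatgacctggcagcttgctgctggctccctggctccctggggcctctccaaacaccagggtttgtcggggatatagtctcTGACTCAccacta
CD163, chr12:7498884-7499003: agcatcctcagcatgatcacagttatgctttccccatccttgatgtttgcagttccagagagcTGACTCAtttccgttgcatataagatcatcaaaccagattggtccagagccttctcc
RAP1B, chr12:68565590-68565709: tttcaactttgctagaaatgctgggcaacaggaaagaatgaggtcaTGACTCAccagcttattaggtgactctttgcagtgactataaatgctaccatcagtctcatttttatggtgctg
CRYBA4, chr22:27113303-27113422: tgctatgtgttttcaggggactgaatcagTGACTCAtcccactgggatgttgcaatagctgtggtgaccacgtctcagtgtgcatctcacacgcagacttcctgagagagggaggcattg
ABCC12, chr16:48165018-48165137: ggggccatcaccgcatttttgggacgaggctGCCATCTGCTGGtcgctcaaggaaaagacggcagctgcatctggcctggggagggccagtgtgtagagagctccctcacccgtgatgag
DHFR2, chr3:94092218-94092337: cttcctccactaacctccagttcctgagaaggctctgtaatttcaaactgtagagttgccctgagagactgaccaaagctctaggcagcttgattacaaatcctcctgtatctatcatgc
GPRIN3, chr4:89227083-89227202: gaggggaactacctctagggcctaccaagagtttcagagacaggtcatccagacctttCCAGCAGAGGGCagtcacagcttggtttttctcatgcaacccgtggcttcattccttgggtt
CCNA1, chr13:36405300-36405419: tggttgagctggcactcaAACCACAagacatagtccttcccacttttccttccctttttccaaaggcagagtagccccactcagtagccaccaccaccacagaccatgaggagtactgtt
KCND2, chr7:120543198-120543317: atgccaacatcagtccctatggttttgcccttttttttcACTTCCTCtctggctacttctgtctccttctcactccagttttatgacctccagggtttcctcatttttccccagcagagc

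Every one of the 6 raised windows holds at least 1 AP-1 word, and none of the 5 lowered windows printed does. The LAMTOR5 window has a pair of AP-1 words side by side. The lowered windows hold a CTCF word (ABCC12 and GPRIN3), a RUNX word (CCNA1), a PU.1 word (KCND2) or none of these words (DHFR2). A sixth lowered locus, nearest to MSRA, also lacked an AP-1 word. The 2 CTCF words are not typical of lowered loci. Among 9380 loci with strong peaks and low background, 697 were lowered at least 2-fold. In 200 bp windows 12 of these (1.72%) held the CTCF word, against 12.8% of all 9380. The PU.1 word was in 17.8% of the 697 against 11.3% of all, and the RUNX word in 14.6% against 11.2%. The AP-1 word was in 4.88% of the 697, in 54.9% of the 51 loci raised at least 2-fold and in 11.4% of all. Most of the 9380 thus lack it, so its absence from the few lowered windows says little by itself. A match is a description of the letters and not evidence that the factor was bound.

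At the 6 raised loci the fold with the combination was closer to that with Corin than to that with ATRA. Values are the authors' fold of the peak over its local background. At the locus 12953 bp from the start of LAMTOR5, a subunit of the Ragulator complex, the fold was 18.0 with the combination, 4.55 with ATRA, 19.3 with Corin and 6.96 with DMSO. The peak near SLC25A4, the mitochondrial ADP/ATP carrier, stood at 18.5 with the combination, 5.24 with ATRA, 21.0 with Corin and 6.16 with DMSO. A peak in a coding exon of CD163, the haemoglobin scavenger receptor of macrophages, stood at 15.4, 4.74, 17.1 and 5.51 in the same order. In these 3 cases both lists with Corin were high and both lists without it were low. The loci near AGFG1 (19.7, 5.83, 22.3 and 14.7), near the small GTPase gene RAP1B (17.6, 6.13, 16.9 and 7.75) and, at 490905 bp, near the lens crystallin gene CRYBA4 (21.0, 7.31, 21.4 and 11.2) had the same order, with ATRA lowest and DMSO second lowest. In all 6 the ATRA peak was the lowest of the 4. These loci were picked for a high combination fold against ATRA, which by itself favours a low ATRA peak far from the combination.

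**Figure D1:**
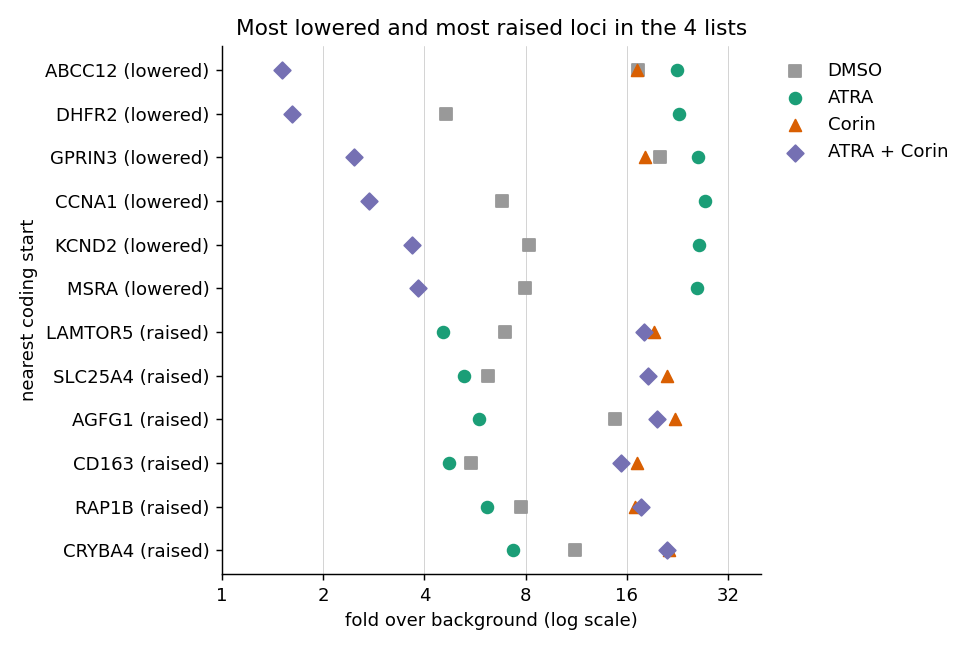
Fold of the peak over its local background (log axis) in each of the 4 lists, for the 6 most lowered and the 6 most raised shared loci, labelled by the nearest coding start. A missing marker means that no peak was called. With the combination the raised loci lie between 15.4 (CD163) and 21.0 (CRYBA4) and the lowered ones between 1.51 (ABCC12) and 3.82 (MSRA), while with ATRA the raised loci lie between 4.55 and 7.31 and the lowered ones between 22.5 and 27.4.

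The most lowered loci fell into different patterns. Near ABCC12, an ABC transporter gene, the fold was 1.51 with the combination and 22.5 with ATRA, but also 17.1 with Corin and 17.3 with DMSO. Near GPRIN3 it was 2.47 with the combination against 26.0, 18.1 and 20.1 with ATRA, Corin and DMSO. These 2 loci, whose windows hold a CTCF word, were thus low with the combination only. The other 4 had no peak with Corin and were highest with ATRA. Picking loci for a low combination fold against ATRA by itself favours a high ATRA peak. Near CCNA1, which encodes the germline and myeloid cyclin A1, the fold was 2.74 with the combination, 27.4 with ATRA and 6.81 with DMSO. In an intron of KCND2, a potassium channel gene, it was 3.68, 26.2 and 8.19 in that order. Near MSRA, a methionine sulfoxide reductase, it was 3.82, 25.8 and 7.97. In an intron of NSUN3, 28428 bp from the start of the dihydrofolate reductase gene DHFR2, it was 1.61, 22.8 and 4.64.

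A shift is the log2 of the fold in the combination list over that in the ATRA list, and it is called centred after the median over all shared loci has been subtracted. The centred shift was 2.32 at LAMTOR5, 2.16 at SLC25A4, 2.10 at AGFG1, 2.04 at CD163, and 1.86 at both RAP1B and CRYBA4. It was -3.56 at ABCC12, -3.48 at DHFR2, -3.06 at GPRIN3, -2.98 at CCNA1, -2.49 at KCND2 and -2.42 at MSRA. Counting error on the log2 scale was between 0.18 (CRYBA4) and 0.30 (DHFR2), far below these values, but it covers read counts only. The 12 were picked as the extremes of 9380 loci with strong peaks and low background, so their size is no independent evidence. Strength here is the mean −log10 p of the 2 lists, so a locus could pass on 1 list alone. The combination peaks at ABCC12 and DHFR2 were barely called. Their −log10 p was 2.01 and 2.12, on 30 and 24 reads, where the lowest in that list was 2.00. At GPRIN3 it was 7.17. Without ATRA, the Corin list over the DMSO list gave centred shifts at the raised loci of 1.56 for LAMTOR5, 1.85 for SLC25A4, 0.68 for AGFG1, 1.72 for CD163, 1.21 for RAP1B and 1.02 for CRYBA4. The same quantity was 0.07 for ABCC12 and -0.06 for GPRIN3.

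Most of the chromatin open with ATRA stayed open with Corin added, and the regions that came and went were weak. The gained regions made up 15.5% of the 94917 regions of the combination list (95% Wilson interval 15.3 to 15.7). The lost regions made up 28.4% of the 113914 ATRA regions (28.1 to 28.7). Of the shared loci 96.3% joined 1 region of each list, so lost and gained counts differ about as the list lengths do. With both lists cut to equal length 18059 were lost and 18872 gained. Those counts are close by construction and do not show which change was larger. With −log10 q of at least 5 the gained regions numbered 7761 and the lost ones 31060, so the cut removed a far larger part of the gained regions. These and later intervals cover counting error over regions only. The gained regions had a median fold of 2.34, against 7.36 for the regions of the same list with a counterpart. The lost regions had a median fold of 4.05, against 10.4. Ranked by −log10 p, 191 gained regions lay in the stronger 50% of the combination list, of which they are 0.402%. In the stronger 50% of the ATRA list 1486 regions were lost, or 2.61%. These are called strong below. Absence from a list means only that no peak was called there. Of the gained regions 872 (5.93%) lay within 1 kb of a coding transcription start and of the lost ones 1628 (5.03%), against 17.9% of the shared loci. Gained regions were richer in G and C than lost ones, at 54.1% and 45.8% on average, with 51.3% and 51.0% in the counterparts.

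The few strong gained regions were found with Corin alone more often than with DMSO. Of the 191, 180 (94.2%, interval 90.0 to 96.8) were also in the Corin list, and 138 of those were in the DMSO list as well. None was in the DMSO list without being in the Corin list (0 of 191, Wilson upper limit 1.97%), and 11 were in neither. In the whole stronger 50% of the combination list 98.6% of regions were in the Corin list and 98.9% in the DMSO list, so the share also called with Corin is not high for strong regions. The share called with Corin and not with DMSO was 22.0% among the strong gained regions and 0.594% in that whole set. The strong lost regions had the opposite make-up. Of the 1486, 951 (64.0%) were in the DMSO list but 318 (21.4%) in the Corin list, and 643 (43.3%) were with DMSO and not with Corin, against 10 with Corin and not with DMSO. The remaining 525 were in neither and so were called with ATRA alone. In the whole stronger 50% of the ATRA list 91.3% of regions were called with Corin and 96.7% with DMSO, and 5.82% with DMSO and not with Corin. Over all strengths 45.3% of gained and 16.5% of lost regions were in the Corin list, and 39.6% and 41.0% in the DMSO list. For comparison, the whole DMSO list was longer than the Corin list, at 116563 and 101851 regions.

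**Figure D2:**
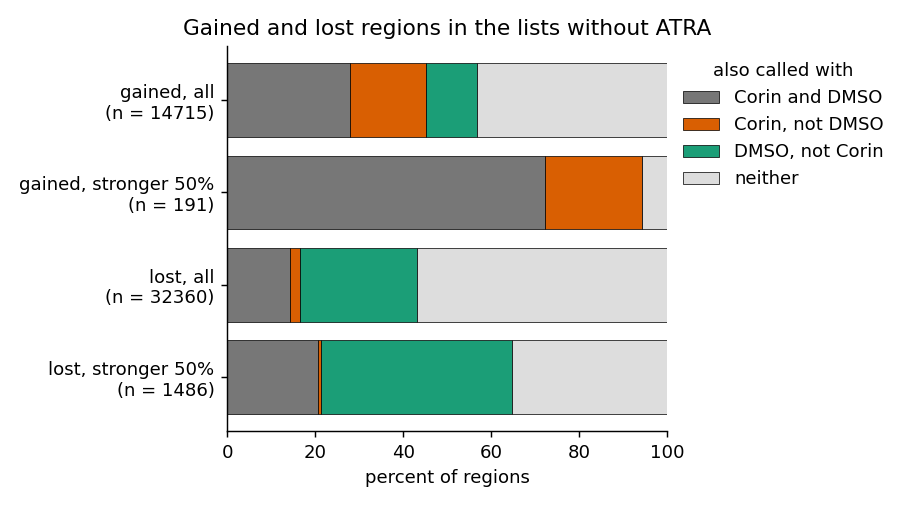
Percent of gained and of lost regions, all of them and those in the stronger 50% of their list, that were also called with Corin and DMSO, with Corin only, with DMSO only or with neither. Among the stronger regions the share also called with Corin is 94.2% for the gained and 21.4% for the lost.

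The 4 gained regions with the highest −log10 p were chr14:50062598-50063020 near VCPKMT, chr8:130310227-130311021 in an intron of ASAP1, chr1:85278873-85279400 near BCL10 and chr7:98418797-98419393 near BAIAP2L1. The VCPKMT region had a fold of 6.42 with the combination, 6.70 with Corin and 9.87 with DMSO, and was missing from the ATRA list only. The ASAP1 region, in a gene for an Arf GTPase-activating protein, had 7.41 with the combination, 7.59 with Corin and 2.33 with DMSO. Near BAIAP2L1 the values were 9.65, 15.3 and 7.16. The region 2241 bp from the start of BCL10, a signalling adaptor of the NF-κB pathway, had a fold of 3.58 with the combination and 4.57 with Corin and was called in neither list without Corin. Its background was 278 reads, against a most frequent one of 13.9 in the list, so it lies in a stretch with many reads. The VCPKMT, ASAP1 and BAIAP2L1 regions also had raised backgrounds, at 6.58, 4.86 and 2.36 times the most frequent one. Of the 4 lost regions highest in −log10 p, those near ACTN4 and PDK1 had backgrounds of 1070 and 103 times the most frequent one, and the p and fold of the ACTN4 peak could not come from a whole number of reads. The other pair lay on backgrounds of 2.01 (FICD) and 1.92 (SLC52A3) times the most frequent one. Near FICD, which modifies the chaperone BiP, the fold was 17.5 with ATRA, 7.64 with Corin and 16.2 with DMSO. Near SLC52A3, a riboflavin transporter gene, it was 17.8 with ATRA, 2.76 with Corin and 7.87 with DMSO.

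At the shared loci the fold was lower with the combination, at a median of 7.44 against 10.7 with ATRA. The median shift was -0.34, a ratio of 0.791, with quartiles of -0.74 and -0.06. The read pileup at the summits, which was recovered from the authors' p and fold, differed little, at 201 and 222 reads, and its median shift was -0.01. The most frequent background differed more, at 13.9 reads over all peaks of the combination list and 9.12 over all peaks of the ATRA list. Pileups and backgrounds are read counts that were not scaled for depth, which is unknown. Whether the lower fold and the higher background reflect depth, library quality or the cells cannot be told apart. All shifts below are therefore centred, and pileup shifts, centred on their own median, are given beside them.

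**Figure D3:**
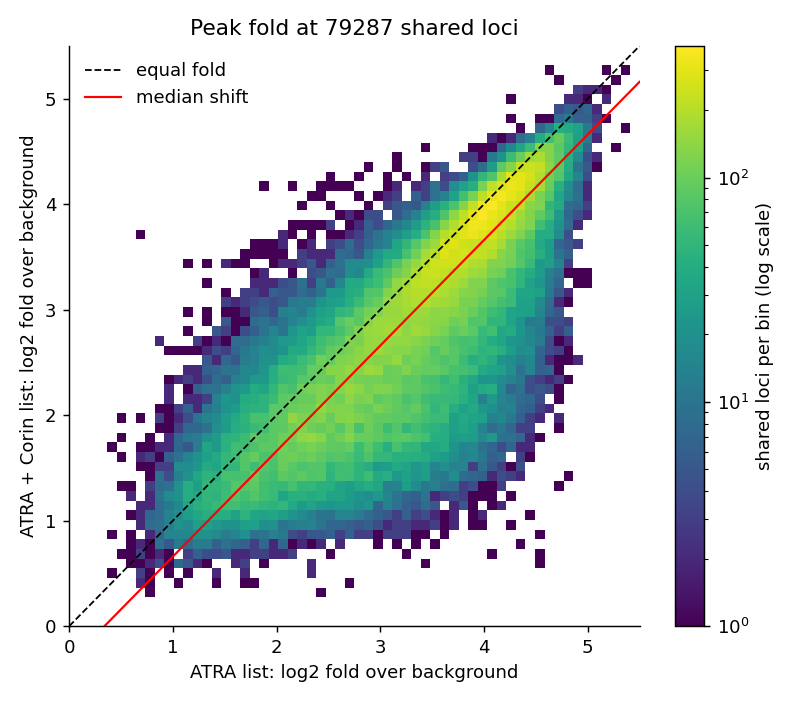
Log2 fold over background in the ATRA list (horizontal) and the combination list (vertical) at the 79287 shared loci, coloured by the number of loci per bin on a log scale. The red line, the median shift of -0.34, runs below the dashed line of equal fold, and the cloud spreads further below it than above it at middle ATRA folds.

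A shared locus is called raised or lowered when its centred shift is at least 1.5-fold, or 0.58 on the log2 scale, a rule of size and not a test. By this rule 5717 loci were raised (7.21%) and 14299 lowered (18.0%), against a median counting error of 0.144. On the pileup scale 10273 were raised and 15688 lowered, so that raised loci made up 28.6% of those called by fold and 39.6% of those called by pileup. On both scales 4220 loci were raised (5.32% of the shared loci) and 10716 lowered (13.5%). The shift varied with strength, but not in one direction. With loci ranked from weak to strong in 10 classes, the median centred shift was -0.07 in the weakest, -0.31 in the third and 0.27 in the strongest, in which 0.492% were lowered.

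Promoters kept more of their fold than distal sites. At the 14226 loci within 1 kb of a coding start the median centred shift was 0.25, with 8.22% raised and 4.71% lowered. At the 65061 other loci it was -0.08, with 6.99% raised and 20.9% lowered, and exons, introns and intergenic loci had medians of -0.11, -0.10 and -0.06. By pileup the medians were 0.22 at promoters and -0.08 elsewhere. Base composition moved with it, since promoter loci had a mean GC content of 64.9% and the others 48.1%. Over 10 classes of GC content the median rose from -0.18 to 0.30, and with loci centred within bins of like GC content the promoter median was 0.05 and the distal one -0.02. Within the GC-rich loci (54.0% GC and above), promoters had 0.27 and distal loci 0.03, but the mean GC content was 68.8% and 60.3%, so that GC is not matched there. For Corin without ATRA the promoter median was 0.07 and the distal one -0.04.

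The shift that went with Corin in ATRA-treated cells was related, over loci, to its shift without ATRA. Most loci raised or lowered with ATRA did not pass the same 1.5-fold line without it. Over the 66601 loci called in all 4 lists, the centred shift of the combination over ATRA and that of Corin over DMSO had a Pearson correlation of 0.59 and a Spearman correlation of 0.58. The 2 shifts share no list, but they share the loci and with them base composition and strength, and no p is given because loci are not replicates. Without ATRA 3504 of these loci were raised (5.26%) and 7012 lowered (10.5%). Of the 5080 raised with ATRA, 1410 were also raised without it, which is 27.8% of the former and 40.2% of the latter, and 33 were lowered. Of the 9247 lowered with ATRA, 3962 were also lowered without it (42.8% of the former and 56.5% of the latter) and 114 were raised. The spread was wider with ATRA, with an SD over loci of 0.53 against 0.44.

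AP-1 words marked the loci that held or gained fold. Windows of 200 bp at the summit were searched on both strands, and 8.19% of the windows at all 126362 loci held TGAGTCA. Among gained regions the share was 9.60% (interval 9.13 to 10.1), among lost regions 4.98% (4.75 to 5.22), among raised loci 22.7% (21.6 to 23.8) and among lowered loci 5.35% (4.99 to 5.73). Among GC-poor windows (up to 45.0% GC), 18.0% of gained and 4.85% of lost regions held it, in the middle class 13.4% and 5.72%, and in the GC-rich class, which holds 7905 of the gained regions, 4.95% and 3.74%. The 7321 shared loci with the word had a median centred shift of 0.17, and those without it -0.02, while both had about the same strength (median −log10 p of 131 and 126). In GC-poor, middle and GC-rich loci, 3 classes of equal size, the medians were 0.10, 0.17 and 0.26 with the word and -0.18, -0.09 and 0.18 without it. By pileup they were 0.23 and -0.02 over all GC contents. At promoters the medians were close, at 0.24 with the word and 0.25 without it. Of the 51 loci raised at least 2-fold among the 9380 with strong peaks and low background, 28 (54.9%, interval 41.4 to 67.7) held the AP-1 word, against 34 of 697 lowered ones (4.88%) and 11.4% of all. The direction was the same without ATRA, where, over loci called in all 4 lists, those with the word had a median Corin shift of 0.22 and those without it -0.02.

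The words of PU.1 and of the interferon regulatory factors went the other way. GAGGAAGT, the word of PU.1, was in 8.20% of all windows, in 2.38% of gained and 9.83% of lost regions, and in 5.09% of raised and 12.4% of lowered loci. The 6835 shared loci with it had a median centred shift of -0.16, and 25.9% of them were lowered and 4.26% raised. The medians with and without the word were -0.25 and -0.14, -0.15 and -0.05, and 0.02 and 0.19 in the 3 classes of GC content from poor to rich. A pair of GAAA with any 2 bases between them, the word of the interferon regulatory factors, was in 1.33% of gained, 5.04% of lost and 3.65% of all regions, and loci with it had a median of -0.16. These loci were poor in GC (44.9%), and from GC-poor to GC-rich the medians with and without the word were -0.24 and -0.15, -0.08 and -0.06, and 0.09 and 0.18. TTGCNNAA, the word of C/EBP factors (N being any base), was in 8.19% of gained and 17.8% of lost regions, with 16.0% of all, but in GC-poor regions the shares were 20.7% and 23.5%. Shared loci with and without the C/EBP word had medians of -0.15 and -0.16 where GC-poor, -0.06 and -0.06 in the middle class and 0.09 and 0.19 where GC-rich. The median centred pileup shift was -0.24 with the PU.1 word, -0.22 with that of the interferon regulatory factors and -0.13 with that of C/EBP.

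The word of GFI1, AATCACNGC, was rare, in 0.623% of all windows. It was in 0.870% of gained (interval 0.732 to 1.03) and 0.399% of lost regions (0.336 to 0.473), and in 1.54% of raised and 0.343% of lowered loci. The 530 shared loci with it had a median centred shift of 0.19, and 0.29 by pileup. At the 429 of them outside promoters the median was 0.14 with the word and -0.08 without it. The direct repeat of AGNTCA with 5 bases between the copies, bound by retinoic acid and retinoid X receptors, was too rare to follow: it was in 14 gained and 25 lost regions, and the 72 shared loci with it had a median of 0.02. TGACGTCA, bound by CREB and ATF factors, GGGGCGGGG, bound by SP and KLF factors, and CCGGAAGT, bound by ubiquitous ETS factors, had medians of 0.32, 0.30 and 0.28. Most of these lay at GC-rich sites, and loci with the SP and KLF word had 71.6% GC on average. The CTCF word was level by fold across the GC classes, at -0.02, -0.02 and -0.01, where loci without it went from -0.16 over -0.06 to 0.20. By pileup loci with the CTCF word had a median of 0.15.

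**Figure D4:**
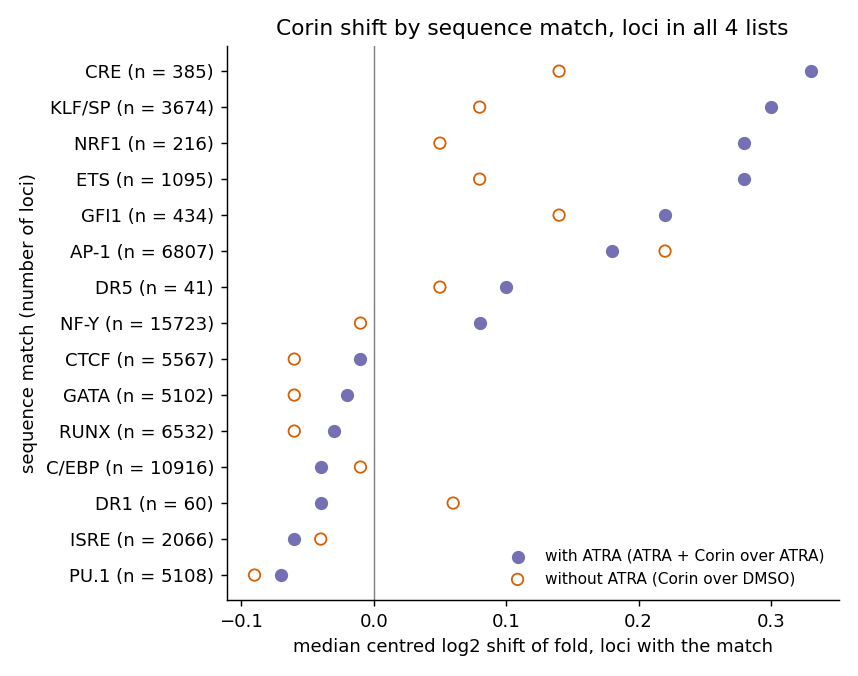
Median centred log2 shift of the fold at loci holding each sequence word, with ATRA (filled, combination over ATRA) and without ATRA (open, Corin over DMSO), over loci called in all 4 lists. With ATRA the AP-1 median is 0.18 and without it 0.22, while at the PU.1 word they are -0.07 and -0.09.

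Gene promoters were read at the strongest shared locus within 1 kb of any start of a coding gene, which 12682 of 20007 genes had. Their median centred shift was 0.27, or 0.24 by pileup, and 867 (6.84%) were raised and 377 (2.97%) lowered. On both scales 532 (4.19%) were raised and 217 (1.71%) lowered. Of 275 genes in 15 lists, 226 had such a locus, of which 25 were raised and 10 lowered by fold. On both scales 9 were raised (ITGAX, S100A8, PHF21A, CTBP1, NCOA1, HLA-DQA1, BCL2, BIK and ACTB) and 5 lowered (LILRB4, LTF, XAF1, CXCL3 and CXCL10). With loci centred within GC bins, PHF21A (0.41), CTBP1 (0.29), NCOA1 (0.35), BCL2 (0.49) and ACTB (0.38) were no longer raised. ITGAX (0.71), HLA-DQA1 (0.92) and BIK (0.90) stayed raised. LILRB4 (-1.26), LTF (-1.42), XAF1 (-0.70) and CXCL3 (-1.34) stayed lowered. No such value is given here for S100A8 and CXCL10. The rule named the highest and lowest gene of each list and the genes with a strong gained or lost region within 10 kb. S100A8, CXCL10 and the other members given here or below that meet neither condition, such as CSF1R, RARA, SPI1, FOS, KDM1A and HOXA10, were chosen after their values were seen. Over all coding genes, 1.04% had a strong gained and 5.81% a strong lost region within 10 kb. Such regions are given below with their fold in the list that holds them. Several lay closer to the start of another gene, and their backgrounds ran from 9.12 to 348 reads. In bulk cells, more cells with an open promoter and a more open promoter per cell cannot be told apart.

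**Figure D5:**
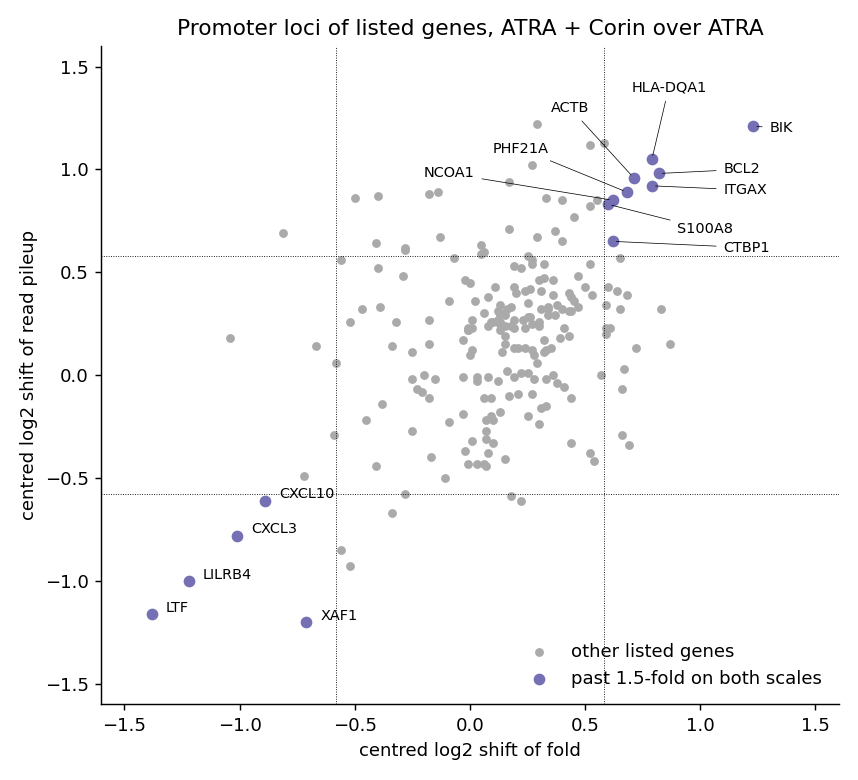
Centred log2 shift of the fold (horizontal) and of the read pileup (vertical) at the promoter loci of the listed genes, combination over ATRA, with dotted lines at 1.5-fold (0.58 and -0.58). The 14 genes past the line on both scales are named, from LTF at -1.38 and -1.16 to BIK at 1.23 on the horizontal axis.

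Among the genes of the monocyte and macrophage surface, 22 of 25 had a shared promoter locus, with 1 raised and 1 lowered and a median of 0.18 (-0.06 by pileup). The promoter of ITGAX, the integrin CD11c, had a fold of 9.64 with the combination, 7.06 with ATRA, 10.0 with Corin and 7.40 with DMSO, a centred shift of 0.79 with a counting error of 0.07. That of LILRB4, an inhibitory receptor, had 4.62, 13.6, no peak and 2.83, a centred shift of -1.22 with a counting error of 0.21. ITGAX was thus high in both lists with Corin, and LILRB4 was highest with ATRA, which naming the gene of lowest shift by itself favours. CSF1R, the receptor of macrophage colony-stimulating factor, had 5.18 with the combination and 9.40 with ATRA, against 1.91 with Corin and 2.69 with DMSO, a centred shift of -0.52 by fold and -0.93 by pileup. ITGAM, the integrin CD11b that rises in myeloid differentiation, had 21.9 and 23.9 and a centred shift of 0.21. CD163 had its promoter at 10.6 and 10.1, and 3 of its 4 shared loci within 10 kb, the exonic one included, were raised. Over all coding genes 7.20% of the shared loci within 10 kb were raised, and the exonic locus had itself been picked as an extreme.

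Of the granule and bactericidal genes 14 of 19 had such a locus, 4 raised and 1 lowered, with a median of 0.29 by fold and -0.04 by pileup. S100A8, a calprotectin subunit, had a fold of 7.39 with the combination, 6.15 with ATRA, 7.20 with Corin and 4.93 with DMSO, and its pileup was 762 reads against 431 with ATRA. LTF, lactoferrin, had 2.05 with the combination and 6.76 with ATRA, on 32 and 72 reads, no peak with Corin and 2.91 with DMSO. CTSG, cathepsin G, had a shift of 0.69 by fold but -0.34 by pileup. A strong region in the LTF gene, with a fold of 11.3 in the ATRA list, was lost, as was a strong region near RNASE3 (6.27), and 1 at ELANE, neutrophil elastase, with a fold of 4.28, was gained.

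The genes of the CoREST complex itself, the target of Corin, had 16 of 16 promoters shared, 3 raised and none lowered, at a median of 0.28, close to that of all genes. PHF21A, its reader of unmethylated histone H3, had 6.42 with the combination and 5.07 with ATRA, with 508 and 276 reads. CTBP1, a co-repressor, had 8.62 and 7.08, with 1259 and 809 reads. KDM1A, HDAC1 and HDAC2 had centred shifts of 0.25, 0.40 and 0.31. The co-regulators around p300 and CBP had 11 of 11 promoters shared, 1 raised and none lowered, at a median of 0.32. The raised one was the co-activator NCOA1, with folds of 14.9 and 12.3. Strong regions inside HDAC1 (13.1 with ATRA) and PHF21A (14.8) were lost. A strong region overlapping a start of CTBP1 (10.0 with ATRA, 4.25 with DMSO) was lost as well. The strongest shared promoter locus of that gene was raised, so its promoter regions went in different directions.

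The retinoic acid response genes had 15 of 25 promoters shared, 1 raised and none lowered, with a median of 0.13 (0.19 by pileup) against 0.27 (0.24) over all genes. Their promoter loci had less GC, 61.6% against 67.1%, and with loci centred within GC bins the medians were 0.08 and 0.06. The receptor genes RARA and RARB had 9.26 and 11.8 with the combination and 10.7 and 12.3 with ATRA, centred shifts of 0.13 and 0.28. RARB, a classic retinoic acid target, had 3.54 with Corin and 6.23 with DMSO, so its promoter was high in both lists with ATRA. PRDM1, a repressor, was the 1 raised, at 13.4 and 10.8 with a shift of 0.65, and 0.57 by pileup. The lowest, the retinol-binding protein receptor STRA6, had a shift of -0.47 by fold and 0.32 by pileup. RXRA, the partner of these receptors, lay just short of the line by fold, at 11.8 and 10.0. Near this list, a strong region inside RARG (3.64) was gained, and strong ones near DHRS3 (3.58), CRABP2 (3.54) and STRA6 (11.3) were lost. Of its 24 annotated genes 12 had a gained and 17 (70.8%) a lost region within 10 kb, against 31.6% and 56.6% of all genes.

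The myeloid transcription factors had 22 of 24 promoters shared, with 3 raised, 1 lowered and a median of 0.14 (0.28 by pileup), and none passed the line in 1 direction on both scales. ETV6, an ETS repressor, was highest at 0.87, with 0.15 by pileup. SPI1, which encodes PU.1, had 10.8 with the combination and 10.1 with ATRA but fewer reads, 981 against 1245. The GFI1 promoter had 6.29 and 5.36 on 982 and 991 reads. RUNX2, a RUNX factor, had 3 strong regions lost from its introns, with ATRA folds of 12.3, 8.68 and 6.10. ETV6 lost 1 (11.2), and a region near CEBPA with an ATRA fold of 2.65 was lost as well.

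Several stimulus-induced genes, grouped after their values were seen, had lower promoter folds but more reads. The 14 genes of AP-1 factors had a median centred shift of -0.17 by fold and 0.33 by pileup, with none raised and 1 lowered by fold, and 6 of them lay above 0. FOS had folds of 5.18 with the combination and 9.65 with ATRA, on 1680 and 1144 reads over backgrounds of 323 and 118. For FOSB the folds were 4.99 and 12.9, on 1749 and 1556 reads over 350 and 120. For JUN they were 7.24 and 11.2, on 2639 and 1904 reads over 364 and 170. NR4A1, an immediate-early nuclear receptor, had 7.40 and 16.3, on 1655 and 1034 reads over 223 and 62.3. CDKN1A, the cell cycle inhibitor p21, had 7.96 and 12.2, on 3074 and 2023 reads over 385 and 164. In each of these 5 genes the summit and its surroundings both held more reads with the combination, the surroundings by the larger factor. The reads were not scaled for depth, and the most frequent background of the whole list was also higher with the combination, at 13.9 against 9.12. FOSL1 (FRA1) kept its fold, at 14.2 and 14.9, on 1415 and 703 reads.

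In the apoptosis list 19 of 20 promoters were shared, 2 raised and none lowered, at a median of 0.27 (0.43 by pileup). BIK, a pro-apoptotic BH3 protein, had the highest shift of all listed genes, 1.23 with a counting error of 0.15, at folds of 11.2 with the combination, 6.02 with ATRA, 11.4 with Corin and 7.26 with DMSO. BCL2, the anti-apoptotic counterpart, had 11.2, 7.97, 9.39 and 8.76, a shift of 0.82. In both genes the ATRA value was the lowest of the 4, which picking genes with a high shift by itself favours. A strong region in an intron of BCL2 (12.4 with ATRA) was lost, as were strong regions near BCL2A1 (4.94) and BAX (2.40). The death receptor gene TNFRSF10A had the lowest shift, -0.56 by fold, just short of the line. It was past the line by pileup (-0.85) and with loci centred within GC bins (-0.69). Among the cell cycle genes 3 of 16 were raised by fold and none lowered, led by CDKN1B (p27) at 0.67 by fold and 0.03 by pileup. A strong region inside RB1 (9.43 with ATRA) was lost.

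The chemokine promoters CXCL3 and CXCL10 were the 2 lowered of 17 cytokine and chemokine promoters, with none raised and a median of 0.15 (0.31 by pileup). CXCL3, a neutrophil attractant, had 4.08 with the combination, 10.4 with ATRA, 3.96 with Corin and 6.74 with DMSO. CXCL10, an interferon-induced chemokine, had 3.67, 8.58, 2.81 and 4.32. Both were highest with ATRA and low in the 2 lists with Corin. Picking lowered promoters by itself favours a high value with ATRA and a low one with the combination. CCL5 was the highest of the list at 0.33. Of the interferon-stimulated genes 24 of 24 had a shared promoter, 1 raised (MX1, 0.59) and 2 lowered, with a median of 0.07 (-0.07 by pileup). XAF1, an inhibitor of XIAP, had 2.42 with the combination and 5.01 with ATRA and no peak in the lists without ATRA. A strong region at RSAD2 (3.94 with ATRA) was lost.

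Of the MHC class II genes 7 of 10 had a shared promoter, 1 raised, 1 lowered, at a median of -0.25 (-0.03 by pileup). HLA-DQA1 had 5.02 with the combination and 3.66 with ATRA, on 74 and 36 reads, and no peak without ATRA, and reads in this polymorphic family may be misplaced among its members. CIITA, the master activator of these genes, had 9.32 and 17.8, a shift of -0.59, with -0.29 by pileup. A strong region in HLA-DMB (3.42) was gained, within 10 kb of HLA-DMA too. Strong regions near HLA-DMB (12.2 with ATRA) and within 10 kb of HLA-DMA (2.13 and 2.49) were lost, and the latter pair lay within 1 kb of the start of another gene, on a background of 341 reads. The HOX list had 8 of 20 promoters shared, 4 raised by fold and none lowered, at a median of 0.52. HOXA9, HOXA10, HOXA11 and HOXA13, the genes of the 5′ end of that cluster, were at 0.83, 0.72, 0.66 and 0.61 by fold but at 0.32, 0.13, -0.29 and 0.23 by pileup, and neighbours in 1 cluster are not independent. Of the neuronal genes, classic targets of REST and CoREST, 8 of 20 had a shared promoter, none raised and 1 lowered (BDNF, -0.72), at a median of -0.17 (-0.01 by pileup), and a strong region inside STX1A (4.14) was gained. TUBB3 was highest at 0.52. The housekeeping genes, with 1 of 14 raised (ACTB, 0.71) and none lowered, had a median of 0.30, and the lowest was POLR2A, the large subunit of RNA polymerase II, at -0.18 by fold and 0.27 by pileup. Strong regions in ACTB (2.71) and EEF1A1 (4.55) were lost too, as were strong regions near MRC1 (12.2) from the surface list, and strong ones near FCGR2A (4.29) and ITGAX (4.83) were gained.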

How the data were processed

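ATAC-seq peaks of U-937 cells were compared between 2 of 4 treatment groups, with 2 samples per group and 1 deposited list per group. Per the submitters' processing notes, cutadapt, Bowtie2, SAMtools, Picard and MACS2 were used with the build hg38; their settings are not given in the sources used here. The deposited lists are in narrowPeak form. Their fold values are a ratio of summit to local background by the authors, p and q are given as −log10, the fifth column is a score that was not analysed, and the authors' summit column is a distance in bp. Read depth is unknown, and 0 per-sample columns were left unmapped.

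Overlapping peaks were merged into regions on 24 chromosomes, and a counterpart overlapped by at least 1 bp. At a shared locus each list was read at the peak with the highest −log10 p. The pileup k and background b were solved from fold = (k + 1)/(b + 1) and the Poisson p, and k was whole within 0.05 for 99.96% of combination peaks and 99.98% of ATRA peaks. Counting errors come from k. Genes and starts are from GENCODE release 44, and 276 of 277 list entries were in it. The sequences printed were read from the hg38 reference. Python 3.11.15, pandas 2.3.3 and scipy 1.17.1 were used, overlaps were checked with bedtools 2.31.1, and the method was tested on simulated data.

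No test was possible with 1 list per group, so loci were called by size. Named regions were the 4 gained and 4 lost with the highest −log10 p and the 6 highest and 6 lowest centred shifts among strong loci with a background at most 2 times the most frequent one. Named genes were the highest and lowest of each list and those with a gained or lost region of the stronger 50% of its list within 10 kb; other members of the lists were described after their values were seen. A few listed genes are not reported here and were left out of the lists. Members, lists, words and rules were chosen with earlier results of these data known.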

Additional observations from a re-analysis of the deposited data

How the results depend on the processing

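No paired analysis was possible because each group had 1 list for both of its samples, and for the same reason no sample could be left out. With peaks of −log10 q of at least 5 only, gained regions numbered 7761, lost regions 31060 and the median shift was -0.33. Gained regions then held the AP-1, PU.1 and GFI1 words in 14.5%, 3.29% and 1.21%, and lost regions the PU.1 word in 10.2%. With lists of equal length 18059 regions were lost and 18872 gained, counts that equal length brings close by construction. They therefore cannot show what the excess of losses went with. With pileup in place of fold the median shift was -0.01, 10273 loci were raised, the promoter median was 0.22 and the Spearman correlation with the shift without ATRA 0.65. Among named promoters past 1.5-fold it turned the direction for NR4A1 (0.69), CTSG (-0.34) and FOSB (0.18), and it also turned smaller shifts, among them those of FOS (0.56), JUN (0.48), CDKN1A (0.61), STRA6 (0.32) and POLR2A (0.27). In the stronger 50% of loci, 39644 in number, the median shift was -0.21, with 1127 raised (2.84%) and 4033 lowered (10.2%). The promoter and distal medians were 0.14 and -0.09 there, and the correlation was 0.57. Without loci of high background 38128 loci remained, with a median shift of -0.61. Of these 5046 were raised (13.2%) and 7375 lowered (19.3%), against 7.21% and 18.0% of all shared loci. The promoter and distal medians were 0.12 and -0.01. At 2-fold 1146 loci were raised and 6179 lowered.

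Centring within GC bins gave promoter and distal medians of 0.05 and -0.02, a correlation of 0.56, and medians of 0.20 (AP-1) and -0.08 (PU.1). Centring within bins of mean fold, an alternative chosen after seeing the data, gave 0.18, -0.07 and, for AP-1, 0.15. With both, also chosen after seeing the data, they were 0.04 and -0.02, with 0.19 (AP-1), -0.09 (PU.1) and 0.13 (GFI1). A promoter limit of 2.5 kb gave 0.23. Windows of 100 bp held the AP-1, PU.1 and GFI1 words in 6.90%, 1.64% and 0.462% of gained and 2.72%, 8.13% and 0.139% of lost regions, with shift medians of 0.22 (AP-1) and -0.19 (PU.1). The cause of these changes was not tested. The AP-1 and PU.1 medians kept their sign under the alternatives run for them: the 100 bp window, the limit on −log10 q and the 3 centrings.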
